A study of Mus musculus with 6 samples.

Results

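The circadian clock genes described here are 10 genes of the cell-autonomous daily timer: Arntl, Clock, Per1, Per2, Per3, Cry1, Cry2, Nr1d1, Nr1d2 and Dbp. They were chosen by name, as the rows of the count table that carry these symbols, with earlier results of these data known. All 10 had a row among the 16281 genes of the table, and all 10 passed the filter on low counts that left 11698 genes for testing. The samples were CD8+ T cells from spleens of C57BL/6 OT1 mice, which carry the T-cell receptor transgene Tg(TcraTcrb)1100Mjb, so that nearly all their CD8+ cells recognise 1 ovalbumin peptide. Cells were activated with anti-CD3 and anti-CD28 for 48 h and expanded in IL-2 for 3 days, either with 0.5 μM GSK2879552 (GSK), an irreversible inhibitor of the histone demethylase LSD1, or with vehicle (Veh). There were 3 GSK and 3 Veh samples, and the cells came from 3 separate mice per the study's methods. Whether a mouse gave both a GSK and a Veh culture was not given. Every group shared the transgene, the antibody stimulation and the IL-2, and each culture was sampled once. The time of day of collection and the age of the mice were not given in the sources used here, so a change in the average level of a cycling transcript and a change in its phase cannot be told apart.

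The mammalian clock is a negative feedback loop of transcription. The activators CLOCK and BMAL1 (encoded by Arntl) bind E-box sequences and switch on the Per and Cry genes, whose proteins return to the nucleus and block the activators. In an interlocked loop the nuclear receptors REV-ERBα and REV-ERBβ (Nr1d1 and Nr1d2) repress, and ROR proteins activate, Arntl through a shared response element, and in another loop the activators DBP, TEF and HLF compete with the repressor NFIL3 at D-boxes. The loops run in most cells, T cells included, and LSD1 has been described as a partner of CLOCK and BMAL1 at clock gene promoters.

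The RefSeq promoter table (GRCm38.p6) held windows from 250 bases before to 50 bases after a transcript start for 9 of the 10 genes, 13 windows in all. Each was searched on both strands for the E-box CACGTG, the D-boxes TTATGTAA and TTACGTAA, the core AGGTCA of the ROR and REV-ERB response element, and the cyclic AMP response element TGACGTCA. An E-box was in 2 of the 13 windows (1 each of Per1 and Cry1), against 7.15% of all 32851 windows in the table. A D-box was in 1 of the 13 (Per3), against 1.06% of windows, and the AGGTCA core was in 4 of the 13 (1 each of Nr1d2, Per1, Clock and Arntl), against 16.3%. Per3 held its D-box at 2 places. The Arntl match began at base 32 after the transcript start, and the other matches of the clock genes lay before the start. Some windows of Arntl and of Clock overlap each other, so the 13 are not all separate sequences. No window of the 10 genes held the cyclic AMP response element, which was in 1.79% of all windows. These are letter matches and not measured binding sites. The stretches are printed for 4 of the 6 genes with a match, those with an E-box or D-box and the REV-ERB gene Nr1d2, with each match in capitals; TGACCT is the AGGTCA core read on the other strand.
Per1 (chr11:69098753-69098847, plus strand): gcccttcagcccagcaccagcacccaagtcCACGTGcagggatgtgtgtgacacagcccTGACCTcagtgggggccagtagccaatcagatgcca
Cry1 (chr10:85185079-85185144, minus strand): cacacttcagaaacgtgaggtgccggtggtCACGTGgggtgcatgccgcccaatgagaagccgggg
Nr1d2 (chr14:18239148-18239213, minus strand): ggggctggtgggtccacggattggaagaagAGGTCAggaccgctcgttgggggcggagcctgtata
Per3 (chr4:151044786-151044900, minus strand): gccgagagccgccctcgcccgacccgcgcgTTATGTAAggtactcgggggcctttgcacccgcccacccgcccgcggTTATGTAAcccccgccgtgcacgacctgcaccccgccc

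The total counts ranged from 18288447 to 18918811 in the Veh samples and from 19149909 to 19846720 in the GSK samples. The counts of GSK 2 and GSK 3 differed most within a group, with a chi-square of 9.38 per degree of freedom over genes, against 4.07 to 4.82 for the other pairs. Values below are counts per 1000000 counts of a library (CPM) with TMM scaling between libraries, and fold changes are GSK over Veh from edgeR's quasi-likelihood test, with p-values adjusted over all 11698 genes by the Benjamini-Hochberg method. The summed CPM of the 5 CD8 T-cell markers (Cd3e, Cd3d, Cd3g, Cd8a and Cd8b1) lay between 1937 and 2036 in Veh and between 1752 and 1869 in GSK. The 3 NK markers summed to 9.56 to 10.7 CPM in Veh and to 12.8 to 16.96 in GSK, the 5 B-cell markers to 5.78 to 7.94 and 5.53 to 6.53, and 5 myeloid markers to 2.79 to 4.68 and 1.30 to 2.73. The 2 CD4 T-cell markers reached at most 2.102 in Veh and 2.87 in GSK, and the erythroid and dendritic markers reached at most 0.268 in any sample. Genes within a list did not all move together. Cd8a had means of 515.9 CPM in Veh and 540.9 in GSK, and Cd3g had 422.8 and 325.3. By the mean, Cd4 and Cd79b were lower in GSK, and Cd40lg, Ms4a1 and Cd79a were higher. Ncr1 had at most 1 count in a sample, so Klre1 and Klrb1c gave nearly all of the NK sum. Whether the cell mix differed was not tested, nor was the part of these marker differences in the clock gene values. In bulk RNA, fewer cells that express a gene and less of its RNA per cell cannot be told apart.

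Clock transcripts moved in both directions. Of the 10 genes, 4 were upregulated by GSK at an adjusted p under 0.05 (Nr1d1, Nr1d2, Per2 and Cry1), against 16.6% of all tested genes. Another 2 were downregulated (Per1 and Dbp), against 15.5% of all tested genes, and Arntl, Clock, Per3 and Cry2 did not pass. A fold change over 1.5 was reached as well by 3 of them, Nr1d1, Per2 and Dbp, against 6.32% of all tested genes in either direction. The 3 GSK values and the 3 Veh values did not overlap for 7 of the 10 genes, against 46.7% of all tested genes. The median log2 fold change over the 10 genes was 0.24, and over all tested genes -0.0039. With upper-quartile scaling, 40.1% of all passing genes were higher in GSK, against 51.6% with TMM scaling, and the 10 genes kept these calls.

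**Figure D1:**
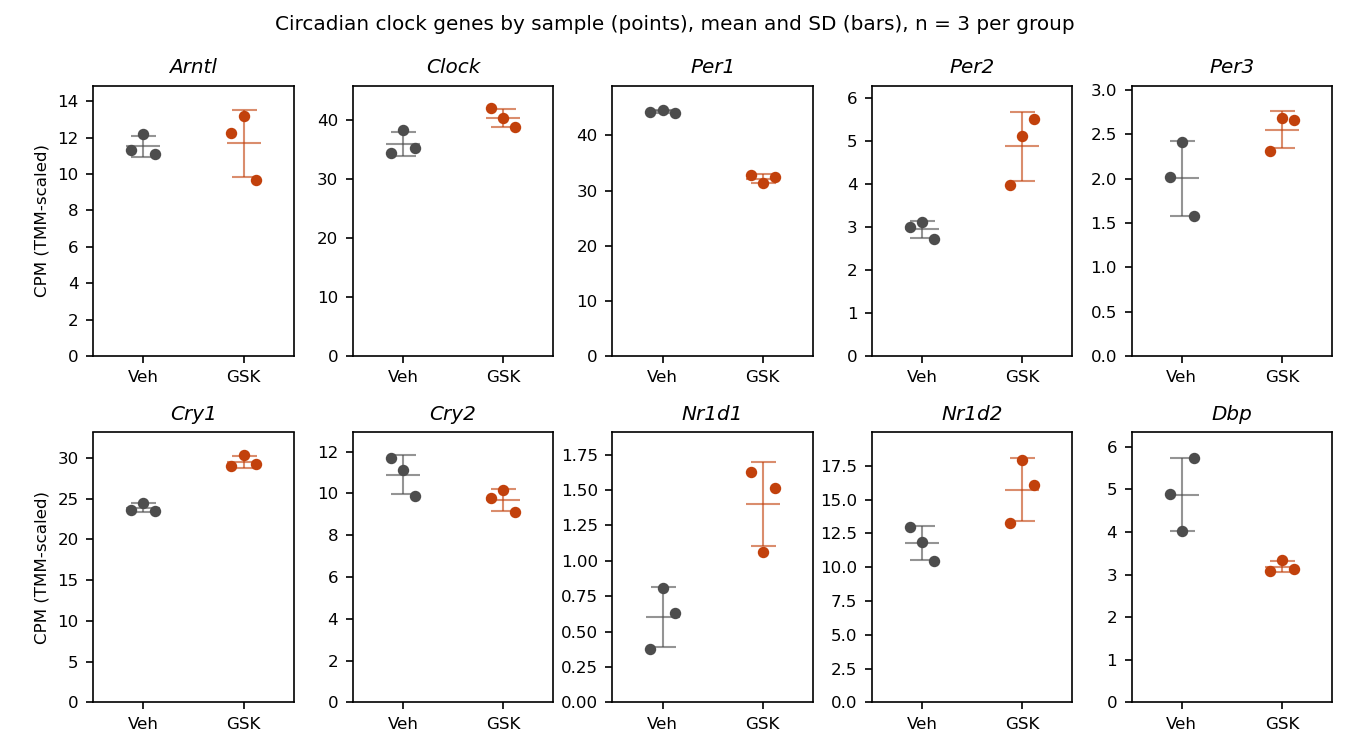
CPM with TMM scaling (vertical axis, from 0) of each of the 10 clock genes in the 3 Veh and 3 GSK samples (points), with the group mean and SD (bars). The groups do not overlap for Clock, Per1, Per2, Cry1, Nr1d1, Nr1d2 and Dbp, and Nr1d1 is the lowest of the 10, at 0.381 to 1.63 CPM.

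Neither of the activators Arntl and Clock passed the test. Arntl (chr7:113178471-113314126, plus strand, GRCm38) was at 11.3, 12.2 and 11.1 CPM in the Veh samples and at 12.2, 13.2 and 9.65 in the GSK samples. The groups overlapped, and the log2 fold change was 0.02 (95% confidence interval -0.25 to 0.29), with an adjusted p of 0.912 from edgeR. Clock (chr5:76209868-76305603, minus strand) stood at 34.4, 38.3 and 35.2 CPM in Veh and at 42.0, 40.4 and 38.9 in GSK. Each GSK value was above each Veh value by a small margin, and the log2 fold change of 0.17 (95% confidence interval 0.02 to 0.31) did not pass, with an adjusted p of 0.0694 from edgeR. Npas2, which can stand in for Clock, had means of 11.9 ± 0.681 CPM in Veh and 13.8 ± 2.32 in GSK (SD, n = 3) and did not pass either (adjusted p = 0.206, edgeR). Arntl2, the paralogue of Arntl, was the exception in this arm. It gave 13, 23 and 18 counts in the Veh samples and 6, 9 and 7 in the GSK samples, a log2 fold change of -1.33 ± 0.41 (SE) with an adjusted p of 0.0254 in edgeR. That call rested on few counts, and it was lost when either GSK 1, GSK 3, Veh 2 or Veh 3 was left out, with a largest adjusted p of 0.105 (edgeR).

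The 3 Period genes, which encode the repressors that carry the feedback, did not move together. Per1 (chr11:69095108-69109965, plus strand), whose promoter E-box is printed above, was at 44.3, 44.7 and 44.1 CPM in Veh and at 32.8, 31.3 and 32.4 in GSK. The groups lay far apart, with an SD of 0.299 CPM among Veh samples and 0.764 CPM among GSK samples. Per1 fell by 0.46 on the log2 scale (SE 0.060, adjusted p = 0.000135, edgeR). Per2 (chr1:91415977-91459351, minus strand) went the other way, from 2.99, 3.11 and 2.73 CPM in Veh to 3.99, 5.11 and 5.53 in GSK. Its log2 fold change was 0.73 ± 0.19 (SE) with an adjusted p of 0.0114 in edgeR, which is 1.66-fold. Per2 was thus lowest in GSK 1 among the treated samples but still above every Veh value. Per3 (chr4:150997018-151044707, minus strand), considered the least essential of the Period genes for rhythm, was at 2.01, 2.41 and 1.58 CPM in Veh and at 2.31, 2.68 and 2.66 in GSK. These overlapped between GSK 1 and Veh 2, and the log2 fold change of 0.35 (95% confidence interval -0.17 to 0.87) had an adjusted p of 0.295 in edgeR, so a change as large as that of Per2 lies within its interval.

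The cryptochromes, direct repressors of CLOCK and BMAL1, also differed from each other. Cry1 (chr10:85131700-85185054, minus strand) was at 23.7, 24.5 and 23.4 CPM in Veh and at 29.0, 30.3 and 29.3 in GSK. The samples of each group lay close together, and the rise of 0.31 ± 0.069 (SE) on the log2 scale, 1.24-fold, passed with an adjusted p of 0.0048 in edgeR. Cry2 (chr2:92403646-92434085, minus strand) was at 11.7, 11.1 and 9.88 CPM in Veh and at 9.76, 10.2 and 9.12 in GSK. The groups overlapped, and its log2 fold change of -0.17 (95% confidence interval -0.42 to 0.08) did not pass (adjusted p = 0.288, edgeR).

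Other repressors of the same activators were mostly downregulated. Bhlhe40 (DEC1), which competes for E-boxes and is induced by T-cell activation, fell from 307.8 ± 22.4 to 229.6 ± 10.8 CPM (SD, n = 3), a log2 fold change of -0.42 with an adjusted p of 0.000158 in edgeR. Ciart, which encodes the repressor CHRONO, was at 14.0, 14.2 and 14.3 CPM in Veh and at 12.1, 8.15 and 8.81 in GSK. It fell by 0.55 on the log2 scale (adjusted p = 0.00792, edgeR), and GSK 1 lay closest to the Veh samples. Among the other loop genes, an E-box was also in the window of Bhlhe41, which did not pass, and in both windows of Tef, which rose. The Ciart promoter window held 3 E-boxes, more than any window of the 10 clock genes, and its stretch is shown for that reason.
Ciart (chr3:95882237-95882374, minus strand): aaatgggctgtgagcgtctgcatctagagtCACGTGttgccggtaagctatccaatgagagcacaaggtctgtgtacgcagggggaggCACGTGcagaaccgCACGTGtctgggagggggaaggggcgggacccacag
Bhlhe41 (DEC2) had only 5 to 15 counts per sample and did not pass (adjusted p = 0.63, edgeR).

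**Figure D2:**
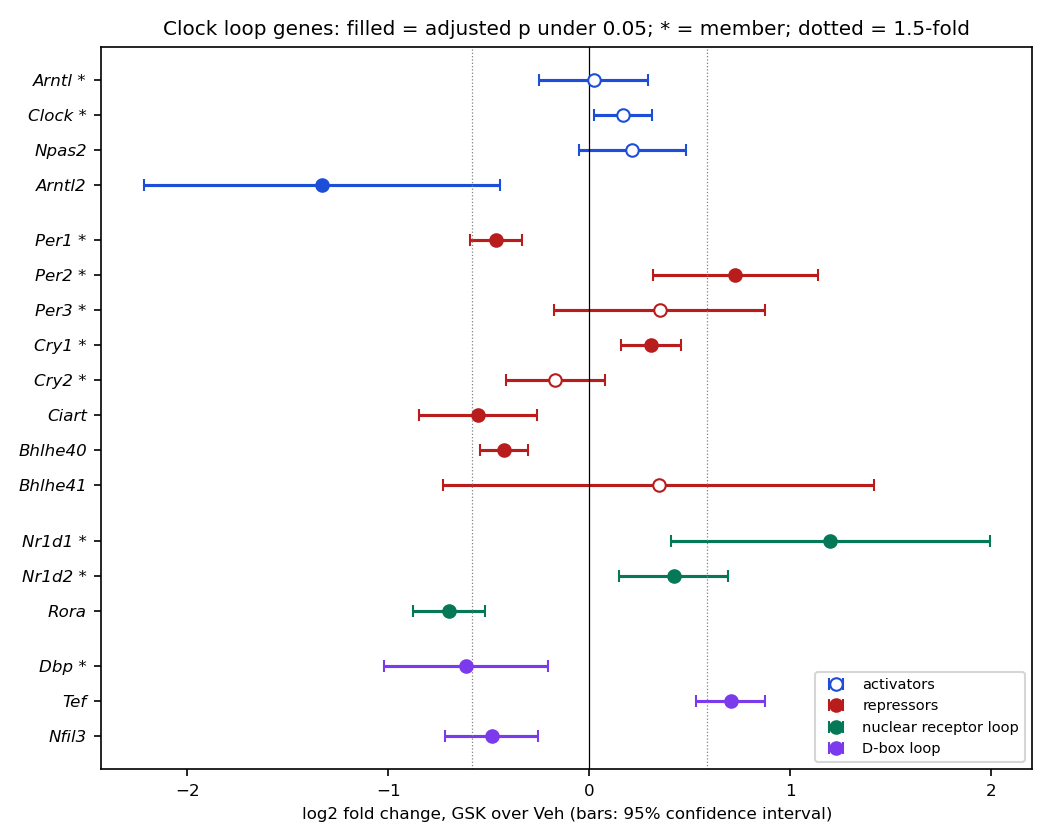
log2 fold change of GSK over Veh (horizontal axis) with its 95% confidence interval for the 10 clock genes (starred) and the 8 other tested genes of the same loops, coloured by arm. Filled points passed at an adjusted p under 0.05, and within each of the repressor, nuclear receptor and D-box arms there are filled points on both sides of 0.

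In the nuclear receptor loop both REV-ERB genes were upregulated while Rora was downregulated. Nr1d1 (chr11:98767932-98775377, minus strand) gave 7, 15 and 12 counts in Veh and 31, 21 and 29 in GSK, or 0.381, 0.805 and 0.631 against 1.63, 1.06 and 1.51 CPM. All GSK counts were above all Veh counts, and the log2 fold change of 1.20 ± 0.37 (SE) was the largest among the 10 genes (adjusted p = 0.0247, edgeR). With so few counts its 95% confidence interval ran from 0.40 to 1.99. Its adjusted p was 0.0558 in DESeq2 and 0.105 in edgeR without Veh 1, and the call was also lost without Veh 3, GSK 1 or GSK 3. Nr1d2 (chr14:18204056-18239106, minus strand), whose promoter stretch with an AGGTCA core is printed above, was at 13.0, 11.9 and 10.5 CPM in Veh and at 13.2, 17.9 and 16.1 in GSK. GSK 1 was only just above Veh 1, and the other treated samples were clearly higher. The log2 fold change was 0.42 ± 0.12 (SE) with an adjusted p of 0.0212 in edgeR, and the call was lost without GSK 2, GSK 3, Veh 2 or Veh 3, with a largest adjusted p of 0.0925. Rora, the activator at the same element, was at 25.8, 25.9 and 26.1 CPM in Veh and at 16.6, 17.0 and 14.3 in GSK. It fell by 0.70 on the log2 scale (adjusted p = 8.19e-05, edgeR), with no overlap between groups. Rorb was not analysed here.

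Nr1d1 lies tail to tail with Thra, the thyroid hormone receptor α gene on the opposite strand, and the exons of both overlap over 263 bp, 8.5% of the exon length of Nr1d1. Thra itself was at 19.1, 13.1 and 15.7 CPM in Veh and at 7.09, 6.98 and 5.94 in GSK. It fell by 1.26 on the log2 scale (adjusted p = 6.25e-05, edgeR), opposite to Nr1d1. The libraries were made with a stranded kit per the study's methods, but whether the counting used the strand was not given. How reads in the shared stretch were assigned is therefore unknown. Among the other members, Dbp overlaps Sphk2 on the opposite strand over 539 bp, 18.0% of its exon length. Sphk2 had means of 36.5 ± 2.86 CPM in Veh and 38.7 ± 1.20 in GSK (SD, n = 3) and did not pass (adjusted p = 0.401, edgeR). Smaller overlaps on the opposite strand were those of Cry2 with D930015M05Rik (295 bp, 4.7%) and of Arntl with Gm45355 (33 bp, 0.4%). On the same strand, Nr1d2 shares 9.51% of its 31-base words with 1 predicted gene elsewhere in the annotation. Every other clock gene shares at most 0.466% with any other gene on the same strand. These shares leave out the opposite-strand overlaps given above.

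The D-box loop also held changes in both directions. Dbp (chr7:45705100-45710203, plus strand), a classic output gene that CLOCK and BMAL1 drive directly, was at 4.90, 4.02 and 5.73 CPM in Veh and at 3.10, 3.34 and 3.13 in GSK. The treated samples were nearly equal and each was below every Veh sample. Dbp fell by 0.61 on the log2 scale (SE 0.19, adjusted p = 0.0247, edgeR), and the call was lost without GSK 1, GSK 3, Veh 1 or Veh 3, with a largest adjusted p of 0.107. Tef, which encodes an activator at the same sequences, rose from 25.8, 24.0 and 25.4 CPM in Veh to 38.6, 45.4 and 38.6 in GSK, a log2 fold change of 0.70 with an adjusted p of 5.07e-05 in edgeR. Nfil3 (E4BP4), the repressor of the arm, fell from 72.8 ± 10.4 to 52.0 ± 4.48 CPM (SD, n = 3), a log2 fold change of -0.48 with an adjusted p of 0.00673 in edgeR. Hlf had too few counts to be tested. Of the 8 other loop genes tested, 1 was upregulated (12.5%, against 16.6% of all tested genes), 5 were downregulated (62.5%, against 15.5%) and 2 did not pass. These genes were listed with earlier results of these data known, and no set test was made.

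Ratios of counts within a sample, which no library scaling affects, were also computed for pairs chosen after their values were seen, and no test was made on them. The Per2 to Per1 ratio was 0.0675, 0.0696 and 0.062 in Veh and 0.122, 0.163 and 0.171 in GSK. Cry1 to Cry2 was 2.02, 2.21 and 2.37 in Veh and 2.97, 2.98 and 3.21 in GSK. The ratio of Nr1d2 to Rora, repressor to activator at one element, was 0.503, 0.459 and 0.401 in Veh and 0.797, 1.05 and 1.12 in GSK. For Tef to Dbp it was 5.28, 5.96 and 4.44 in Veh and 12.5, 13.6 and 12.3 in GSK. In these 4 pairs every GSK sample was above every Veh sample. The Npas2 to Clock ratio overlapped, at 0.354, 0.322 and 0.315 in Veh and 0.39, 0.322 and 0.307 in GSK.

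**Figure D3:**
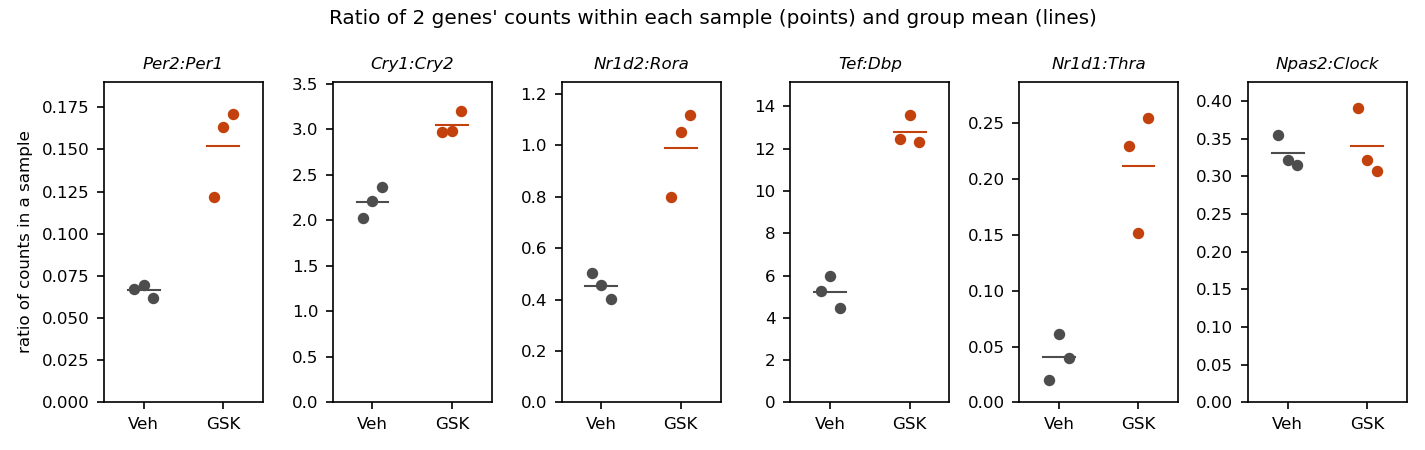
Ratio of the counts of 2 genes within each sample (vertical axis, from 0) for 6 pairs in the 3 Veh and 3 GSK samples (points), with group means (lines). The groups are apart in every pair plotted other than Npas2 to Clock, which spans 0.315 to 0.354 in Veh and 0.307 to 0.39 in GSK; the pair Nr1d1 to Thra has overlapping exons.

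To compare levels between genes, CPM was divided by the exon length of each gene. In Veh the order of mean levels was Per1 (7.88 CPM per kilobase), Cry1 (7.15), Clock (2.62), Nr1d2 (2.18), Cry2 (1.72), Dbp (1.63), Arntl (1.53), Per2 (0.503), Per3 (0.208) and Nr1d1 (0.197). The sample values overlapped between the neighbours Cry2 and Dbp, Dbp and Arntl, and Per3 and Nr1d1, and not between the others. In GSK the order was Cry1 (8.84 CPM per kilobase), Per1 (5.71), Clock (2.95), Nr1d2 (2.91), Arntl (1.56), Cry2 (1.53), Dbp (1.07), Per2 (0.833), Nr1d1 (0.455) and Per3 (0.266), with overlap between Clock and Nr1d2 and between Arntl and Cry2. Per1 and Cry1 thus changed places at the top, and the 2 places at the bottom were also exchanged. With the longest transcript as the length, Arntl and Nr1d2 took other places in the Veh order.

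**Figure D4:**
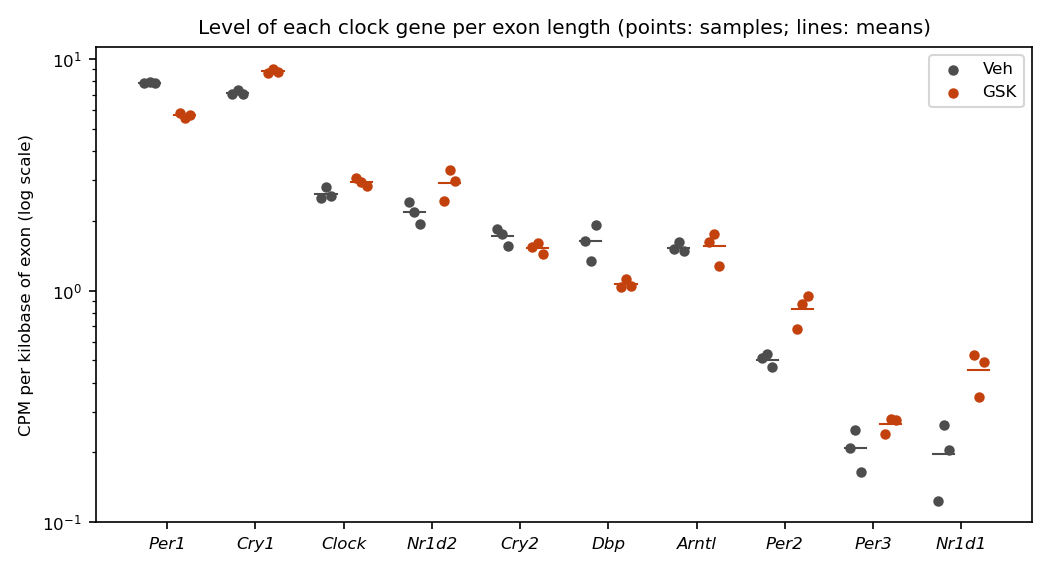
CPM per kilobase of exon (vertical axis, log scale) of the 10 clock genes in the 3 Veh and 3 GSK samples (points) with group means (lines), ordered by the Veh mean. Levels span from 7.88 for Per1 to 0.197 for Nr1d1 in Veh, and Per1 and Cry1 exchange rank in GSK.

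A separate list held the enzymes that modify clock proteins or set their stability. Like the lists of co-regulators and of clock-controlled and input genes below, it was written with earlier results of these data known. The shares given for these lists are therefore descriptions, and no set test was made. Of 26 tested kinases, phosphatases, ubiquitin ligases and related factors, 3 were upregulated (11.5%, against 16.6% of all tested genes), 2 were downregulated (7.69%, against 15.5%) and 21 did not pass, and none passed the fold change of 1.5. The 3 with the smallest p were the phosphatase gene Ppp5c, with a log2 fold change of 0.41, the casein kinase gene Csnk1a1, with -0.18, and Csnk2b, a casein kinase 2 subunit gene, with 0.21. Csnk1d and Csnk1e, which encode the main PER kinases, had log2 fold changes of 0.0032 and -0.20 and did not pass (adjusted p = 0.962 and 0.244, edgeR). Csnk1d and Csnk1e were named after their values were seen.

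Of 26 tested co-regulators of the clock, 9 were upregulated (34.6%, against 16.6% of all tested genes), 3 were downregulated (11.5%, against 15.5%) and 14 did not pass, again with none past the fold change of 1.5. The 3 with the smallest p have main roles outside the clock. Id2, an inhibitor of helix-loop-helix factors with known roles in effector CD8+ T cells, rose from 209.3 ± 9.29 to 311.5 ± 14.7 CPM (SD, n = 3). Prmt5, an arginine methyltransferase gene, rose by 0.34 and Heatr1, a ribosome biogenesis gene, by 0.47 on the log2 scale. Kdm1a, which encodes the drug target LSD1, had a log2 fold change of -0.09 with an adjusted p of 0.224 in edgeR.

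Of 18 tested clock-controlled and input genes outside the loops, 2 were upregulated (11.1%, against 16.6% of all tested genes), 6 were downregulated (33.3%, against 15.5%) and 10 did not pass. The fold change of 1.5 was passed by 3 of them. Tsc22d3 (GILZ), a glucocorticoid-induced gene, fell from 53.4 ± 2.40 to 24.1 ± 5.79 CPM (SD, n = 3), a log2 fold change of -1.15 with an adjusted p of 0.00211 in edgeR. Sik1, a kinase gene induced by cyclic AMP signalling that limits clock resetting, fell by 0.73 on the log2 scale (adjusted p = 0.00012, edgeR). Lonrf3, a RING finger gene, rose 2.88-fold, from 3.99 ± 1.22 to 11.5 ± 0.394 CPM (SD, n = 3), with an adjusted p of 9.06e-05 in edgeR.

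How far each call depended on the analysis differed among the 10 genes. Per1, Per2 and Cry1 passed in all 12 alternatives other than the test against a 1.5-fold change, with largest adjusted p-values of 0.00151, 0.0481 and 0.022 in edgeR. Nr1d2 and Dbp passed in 8 of these 12, and Nr1d1 in 5 of the 11 in which it was tested. Per3, Cry2 and Arntl passed in none of the 12, and Clock passed in 1, without Veh 2 (adjusted p = 0.0473, edgeR). The direction was the same in every one of these alternatives for each gene other than Arntl.

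**Figure D5:**
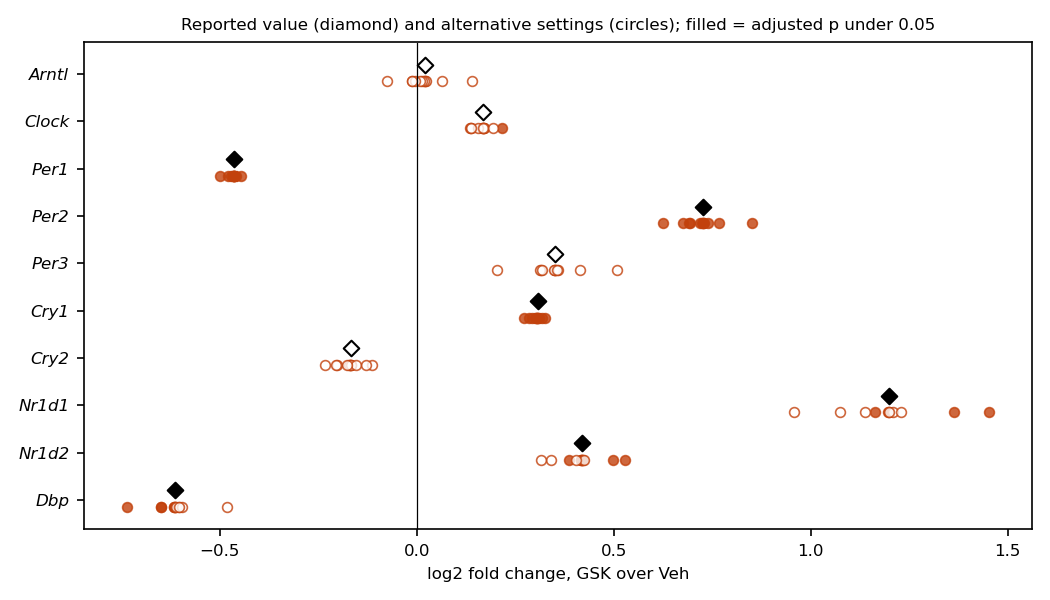
log2 fold change of GSK over Veh (horizontal axis) for the 10 clock genes as reported (diamonds) and in up to 12 alternative settings (circles), filled where the adjusted p was under 0.05. All circles are filled for Per1, Per2 and Cry1, none for Arntl, Per3 and Cry2, and the circles of Arntl lie on both sides of 0, from -0.08 to 0.14.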

How the data were processed

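RNA was measured in 3 GSK and 3 Veh samples. The libraries were polyA-selected and made with a stranded kit. The authors trimmed the reads, mapped them to GRCm38 with HISAT2 (version 2.1.0) and counted them per gene with HTSeq (version 0.11.2). What they deposited is a table of raw whole-number counts per gene. The strand setting and the annotation release were not given in the sources used here, which leaves overlapping genes uncertain. The authors' own fold changes and FPKM were not used.

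GSK was tested against Veh by edgeR (version 4.0.16 under R 4.3.3) with its robust quasi-likelihood test, using TMM scaling, filterByExpr and Benjamini-Hochberg adjustment over all tested genes. Standard errors were derived from the test statistic. The study's thresholds are 0.05 for the adjusted p and 1.5 for the fold change. Calls are given for the first alone and for both. Alternatives were DESeq2 (version 1.42.0), RLE and upper-quartile factors, no filter or a filter of 10 counts in every sample, the replicate number as a block, edgeR's test against a fold change of 1.5, and leaving out each sample. At totals of 18288447 to 19846720 counts per sample, a gene near 1 CPM rests on about 19 counts.

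The clock genes and the pathway lists were chosen with earlier results of these data known. All tested genes of the loops were named. In the other lists the named genes were those past both thresholds or, where there were none, the 3 with the smallest p, together with genes that overlap a clock gene. Kdm1a, Csnk1d and Csnk1e were named outside this rule. Coordinates and promoters are RefSeq's for GRCm38, and exon lengths are from GENCODE vM21. p-values set the difference between GSK and Veh against the spread between these samples, which edgeR estimates with information shared across genes. ChIP-seq was not analysed here.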

Additional observations from a re-analysis of the deposited data

How the results depend on the processing

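The count of clock genes higher in GSK was 4 as reported and 3 with DESeq2, with at least 10 counts required in every sample and with the replicate block, each time without Nr1d1. Leaving out 1 sample gave 2 to 4 higher, 1 to 2 lower, and 1 to 3 past both thresholds, against 4, 2 and 3. The clock genes past both thresholds were 2 with DESeq2, with the 10-count filter and with the replicate block. Tested against a fold change of 1.5 in edgeR, 134 genes passed instead of 3760, and 0 of the 10 clock genes, 0 of the other loop genes and 0 of the kinases, ligases and co-regulators. The clock-controlled and input genes were not counted under the alternatives. At an unadjusted p under 0.05 in edgeR's test against a fold change of 1.5, 503 of all genes and 1 clock gene (Nr1d1) passed. So did 3 other loop genes (Arntl2, Rora and Tef) and 0 of the kinases, ligases and co-regulators. Genes passing ranged from 2569 to 4103 when 1 sample was left out, lowest without GSK 1 and highest without GSK 2. The other loop genes numbered 6, or 5 to 6 without 1 sample, and the kinases, ligases and co-regulators 17, 14 with the replicate block and 12 to 16 without 1 sample. Arntl changed sign with upper-quartile factors (-0.0133) and over a range of -0.0764 to 0.14 without 1 sample, never past the threshold; the cause was not tested. With the replicate block 3303 genes passed, and Nr1d1 had an adjusted p of 0.0516 in edgeR. The correlations of same-numbered samples' deviations were -0.052, -0.111 and 0.189. They bear only on same-numbered samples and cannot show whether mice were shared between the groups. The numbers were not taken as pairs because the sources used here do not say that they mark a mouse. Depth limited Nr1d1, Arntl2 and Bhlhe41, with at most 31 counts in a sample.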

Other observations

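Among the 154 genes of the deposited table with a circadian or rhythmic GO term outside the 10 clock genes and the other loop genes, 119 were tested. Of these, 17 (14.3%) were upregulated and 16 (13.4%) downregulated, close to the shares of 16.6% and 15.5% over all tested genes. The 7 past both thresholds were Prf1, Grin1, Maged1, Sik1, Mttp, Kdm5b and Nos2, several of which are known mainly for other functions. Prf1, which encodes the cytotoxic pore protein perforin, was at 39.8, 42.5 and 44.6 CPM in Veh and at 87.7, 85.3 and 98.2 in GSK, with no overlap (log2 fold change 1.09, adjusted p = 3.92e-07, edgeR). Grin1, a glutamate receptor subunit gene, was at 5.28, 4.94 and 5.57 CPM in Veh and at 0.997, 0.86 and 0.469 in GSK, a fall by 2.75 on the log2 scale (adjusted p = 1.48e-05, edgeR). These 7 genes came from the term lists and were named after their values were seen.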
